A study of Mus musculus with 9 samples.

Results

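Interferon-stimulated genes are the genes that cells switch on when interferon binds its receptors. Here 37 well-known ones were chosen by name and not by a rule on their values, but with earlier results of these data known. Each was read at a probe set, a group of short array probes for a transcript, whose annotation names that gene alone. Where a gene had several such probe sets, the one with the highest mean over the 9 arrays was used. A probe set was found for 35 of the 37 genes, out of 18193 genes read in the same way. *Isg15* and *Ifi44* were not analysed here.

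The arrays measured RNA of whole mouse uteri on gestation day (GD) 3.5, shortly before an embryo implants, with 3 arrays in each of 3 groups. The *Mig-6 d/d* mice lack *Mig-6* (gene symbol *Errfi1*), which encodes an inhibitor of epidermal growth factor receptor family kinases, and the group labelled *Mig-6 d/d Erbb2 d/d*, here called the double knockout, also lack *Erbb2*, which encodes a kinase of that family. In both, floxed alleles were deleted by Cre recombinase made from 1 allele of the progesterone receptor gene, so that deletion is limited to cells that express this receptor and blood vessels or immune cells without it keep both genes. Control mice had no Cre and carried the floxed *Mig-6* allele, some of them with floxed *Erbb2* too, so Cre itself and the loss of 1 progesterone receptor allele cannot be told apart from the deletion of *Mig-6*. Which control array had which floxed alleles is not given. Mice were of a mixed C57BL/6 and 129P2/OlaHsd background and were bred for these alleles. The labels describe the tissue as being from animals of 2 weeks of age, which cannot hold for a day of gestation, and the methods of the study describe adult mice. RNA was pooled from several mice of a genotype, and how pools were divided over arrays is not given, so the p-values below measure the spread between arrays, which may be technical.

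Interferons are secreted proteins that warn neighbouring cells of infection. Their receptors act through Janus kinases on STAT proteins, which, with the DNA-binding protein *Irf9*, bind a response element (ISRE) in the promoters of the genes described here; interferon gamma acts more through a second element (GAS). The products block viral translation, degrade or sense foreign nucleic acid, or feed back on the pathway. In ruminants, interferon from the early conceptus is known to switch such genes on in the endometrium.

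Before the results, the deleted genes were read in each array. *Errfi1* intensity was 454, 564 and 286 in the control arrays, 15.1 and 16.0 in *Mig-6 d/d* replicates 1 and 2, and 76.1, 29.8 and 40.3 in the double knockout. The third array of the *Mig-6 d/d* group read 255, above the rest of its group and below the lowest control, so it is called the library labelled *Mig-6 d/d* 3 below. *Erbb2* read between 29.4 and 45.7 in control, between 39.5 and 46.6 in *Mig-6 d/d*, and between 9.88 and 18.45 in the double knockout. Defining uterine genes were present in the 9 arrays, at a summed intensity between 3180 and 4746.

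The promoters of these genes carry the element through which interferon acts more often than promoters at large. A RefSeq promoter window, from 250 bases before to 50 bases after an annotated start on build GRCm38.p6, was given for 26 of the 35 genes. The core of the ISRE, searched as GAAANNGAAA on both strands, lay in the window of 13 of the 26 genes (50%), against 3.99% of 27025 genes. The GAS core, TTCNNNGAA, lay in the window of 6 of the 26 (23.1%), against 9.55% of all genes. A match is a description of the letters and not proof of a bound site. The stretches below, with the core in capitals, are shown because they set genes with a large increase in *Mig-6 d/d* beside genes without one. The first 4 belong to genes with a mean more than 2-fold above control in *Mig-6 d/d* uteri.
Ifit1: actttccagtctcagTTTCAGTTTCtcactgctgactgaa
Ifit3: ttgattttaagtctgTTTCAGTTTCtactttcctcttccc
Oas1a: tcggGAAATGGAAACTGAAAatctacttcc
Eif2ak2: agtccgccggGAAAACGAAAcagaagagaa
These lie on GRCm38.p6 at chr19:34640789-34640828 (plus strand, core at positions -85 to -76 from the start) for *Ifit1*, at chr19:34583392-34583431 (plus strand, -122 to -113) for *Ifit3* and at chr5:120907520-120907549 (minus strand) for *Oas1a*, where 2 cores overlap. The stretch of *Eif2ak2*, at chr17:78882535-78882564 on the minus strand, holds its core after the start, at positions 18 to 27. The next 4 belong to genes that were not called in any comparison and whose *Mig-6 d/d* arrays overlapped control or, for *Gbp2*, lay below it, at the probe sets used. At the dimmer probe set of *Stat2*, not called either, each *Mig-6 d/d* array read above each control array (log2 fold change 0.40).
Gbp2: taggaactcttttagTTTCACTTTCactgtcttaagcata
Cxcl10: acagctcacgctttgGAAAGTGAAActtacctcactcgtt
Stat2: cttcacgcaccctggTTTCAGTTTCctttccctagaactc
Bst2: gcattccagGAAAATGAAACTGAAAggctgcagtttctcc
Their positions are chr3:142620589-142620628 (plus strand, core at -59 to -50) for *Gbp2*, chr5:92349078-92349117 (minus strand, -213 to -204) for *Cxcl10*, chr10:128270261-128270300 (plus strand, -222 to -213) for *Stat2* and chr8:71537572-71537611 (minus strand, 2 overlapping cores) for *Bst2*. The ISRE core therefore stood in genes of both kinds, and the core printed for *Stat2* has the letters of the one in *Ifit1*.

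**Figure D1:**
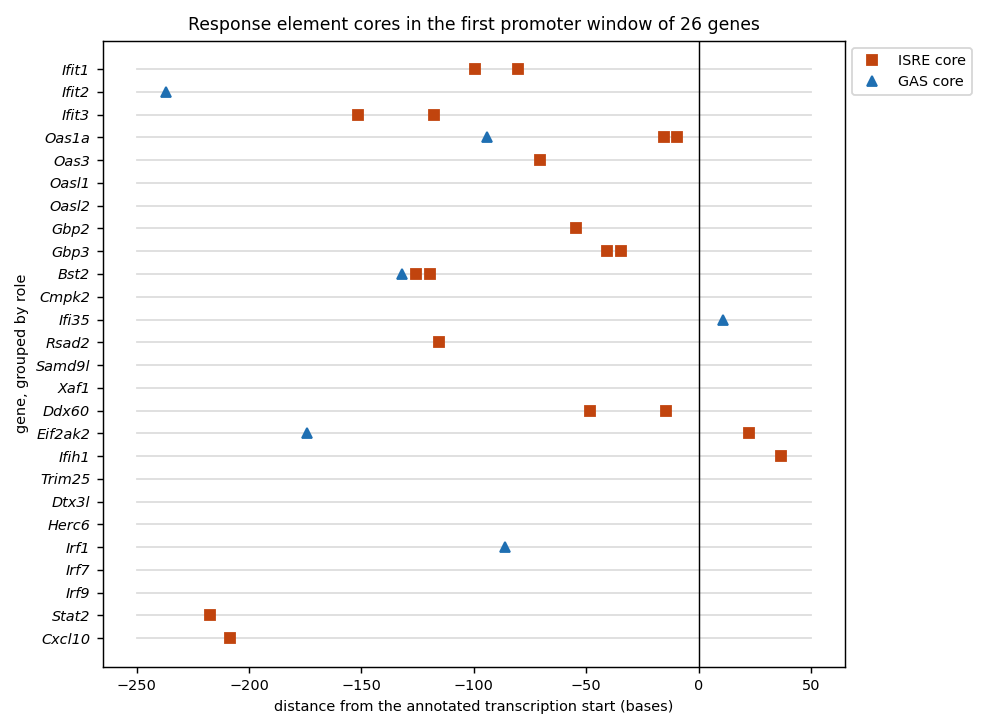
Distance in bases from the annotated transcription start (x axis) of each match to the ISRE core (squares) and the GAS core (triangles) in the first RefSeq window of the 26 genes that have one (y axis, by role). The ISRE core lay in 13 of the 26 genes, and 10 of the 26 windows shown hold neither symbol.

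In uteri of *Mig-6 d/d* mice, the interferon-stimulated genes as a group read higher than in control uteri. Of the 35 genes, 33 had a higher mean log2 intensity in *Mig-6 d/d*, against 44.85% of all genes, and the median log2 fold change was 0.72, against -0.03 over all genes. For 18 of them, each *Mig-6 d/d* array read above each control array, where 11.6% of all genes did so, and for 1, *Gbp2*, each read below, where 14.1% of all genes did so. Few passed the test, however. Calls required more than a 1.5-fold change and an adjusted p under 0.05 in limma over 45037 probe sets, and 1 of the 35 genes was called increased (2.55% of all genes were) and 0 decreased (1.81%), while 25 had an unadjusted p under 0.05. The number of cells of a type and the RNA made per cell cannot be told apart in whole tissue.

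The gene called increased was *Eif2ak2*, which encodes the kinase PKR that halts translation on meeting double-stranded RNA. Its intensity was 38.7, 25.4 and 33.4 in control, 87.5, 49.8 and 110 in *Mig-6 d/d* and 32.6, 27.1 and 33.7 in the double knockout. The *Mig-6 d/d* arrays lay above the other 6, which overlapped each other. The log2 fold change over control was 1.29 ± 0.26 (SE, n = 3 arrays a group, limma adjusted p = 0.0310). The call was lost without control replicate 2 or 3, without *Mig-6 d/d* replicate 1 and on leaving out the library labelled *Mig-6 d/d* 3, with 0 of the 35 genes called increased in each of these 4 cases, where the share of all genes called increased was 0.737%, 2.67%, 0.753% and 0.797%. The 2 other probe sets of *Eif2ak2* had log2 fold changes of 1.06 (adjusted p = 0.0788) and 0.47 (adjusted p = 0.189).

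The largest differences from control among the 35 genes did not pass the test, because the 3 *Mig-6 d/d* arrays were far apart. *Oas2* makes the oligoadenylates that switch on RNase L, and it read 26.4, 23.2 and 32.3 in control and 130, 51.0 and 270 in *Mig-6 d/d*. The log2 fold change was 2.17 ± 0.52 (SE, limma adjusted p = 0.0522). *Oasl1*, a relative that restrains translation of *Irf7*, read 16.0, 16.1 and 21.4 in control and 81.9, 24.1 and 165 in *Mig-6 d/d* (log2 fold change 1.96 ± 0.53, adjusted p = 0.0752). In these genes the groups did not overlap, yet the replicates of *Mig-6 d/d* differed by more than 5-fold from lowest to highest. *Usp18* removes ISG15 from proteins and dampens the interferon receptor. It read 29.9, 16.1 and 28.7 in control and 70.8, 46.1 and 195 in *Mig-6 d/d*, a log2 fold change of 1.84 ± 0.45 (adjusted p = 0.0534).

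*Gbp2* went the other way. It encodes a guanylate-binding GTPase that attacks pathogen-bearing vacuoles and is induced most by interferon gamma, and it read 172, 287 and 174 in control, 111, 79.5 and 160 in *Mig-6 d/d* and 183, 167 and 167 in the double knockout. At the probe set used, the *Mig-6 d/d* arrays were the lowest 3 of the 9. Over control, the *Mig-6 d/d* group had a log2 fold change of -0.87 ± 0.25 (SE, limma adjusted p = 0.0923). The dimmer probe set of *Gbp2* read 89.09, 108.76 and 86.66 in control and 65.48, 46.27 and 103.93 in *Mig-6 d/d*. The double knockout read 92.45, 92.72 and 103.84 there, and the 3 groups overlapped. *Mig-6 d/d* differed from control by -0.47 on the log2 scale at that probe set and was not called (limma adjusted p = 0.344). The neighbour of *Gbp2* on chromosome 3, *Gbp3*, differed by 0.13 on the log2 scale (adjusted p = 0.881). *Xaf1*, whose product binds an inhibitor of apoptosis, was the other gene below 0, at -0.13 ± 1.01. Its 2 probe sets disagreed: the dimmer one read 132, 117 and 92.7 in control and 191, 179 and 267 in *Mig-6 d/d* and was called increased, at a log2 fold change of 0.89 (adjusted p = 0.0369). *Trim25*, a ubiquitin ligase of the RNA sensing pathway, likewise had 1 dim probe set of 3 called increased (0.80, adjusted p = 0.0486), which is not the one used for its counts.

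**Figure D2:**
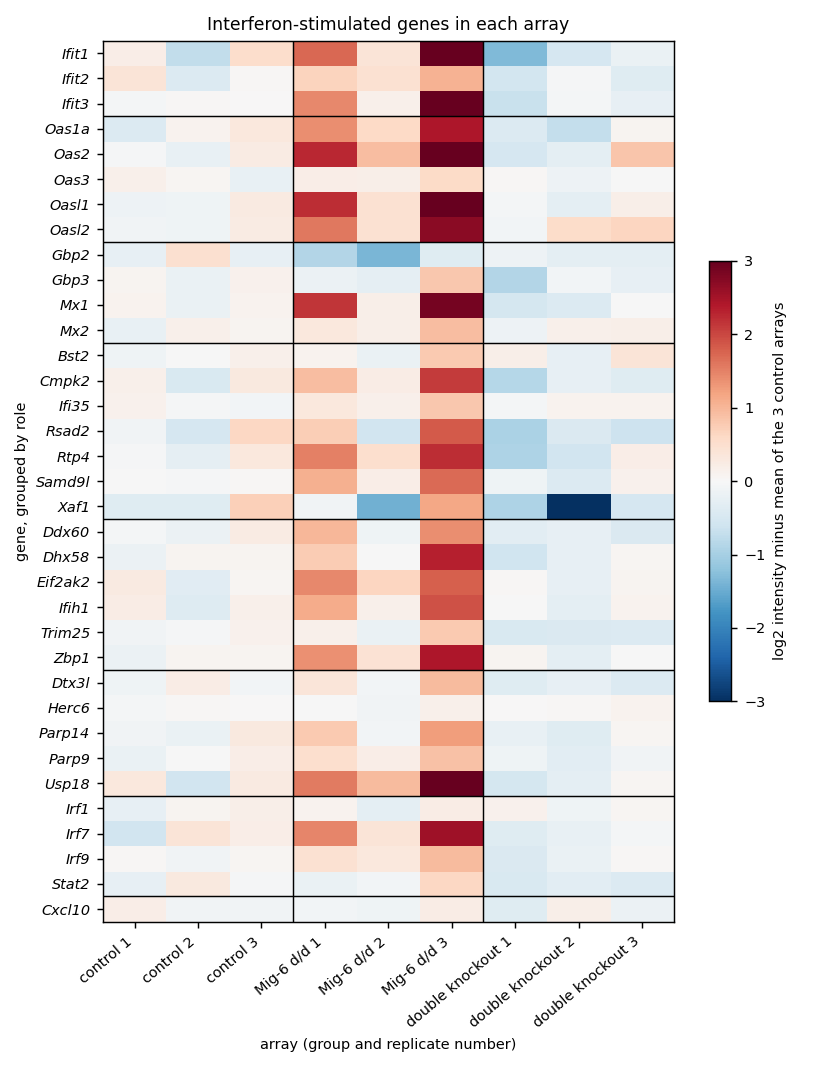
Log2 intensity minus the mean of the 3 control arrays (colour, clipped at -3 and 3) for the 35 genes (rows, grouped by role) in the 9 arrays (columns). The columns of the library labelled *Mig-6 d/d* 3 and of *Mig-6 d/d* replicate 1 are red over most rows, while that of *Mig-6 d/d* replicate 2 is close to the control columns.

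The 3 *Mig-6 d/d* arrays differed from one another in these genes more than in the genome at large, and nearly always in the same order. The library labelled *Mig-6 d/d* 3 was the highest of its group in 35 of 35 genes, as it was in 31.1% of all genes, and replicate 2 was the lowest in 34 of 35, as it was in 36.2% of all genes. Expressed as the mean log2 difference from control over the 35 genes, the *Mig-6 d/d* arrays read 0.81, 0.09 and 1.60, the control arrays -0.05, -0.10 and 0.15, and the double knockout arrays -0.37, -0.35 and -0.04. *Mig-6 d/d* replicate 2 therefore lay within the range of the control arrays, and the other 2 lay above it.

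The median gene of the 35 was 2.83-fold higher in the library labelled *Mig-6 d/d* 3 than in replicate 2, while the median over all genes differed by less than 0.01 on the log2 scale. Across the genome, 223 genes were more than 2-fold higher in the former, and 23 of these were among the 35. *Ifit1*, whose product binds foreign RNA, had the largest such difference of the 35 (log2 difference 2.96), followed by its partner *Ifit3* (2.89), *Oasl1* (2.78) and the GTPase gene *Mx1* (2.68), and *Herc6*, the ISG15 ligase gene of the mouse, had the smallest (0.25). Within the other groups the order was looser: the third control array was the highest of its group in 19 of the 35 genes and the third double knockout array in 22. Once the library labelled *Mig-6 d/d* 3 was left out, the one with high *Errfi1*, the median log2 fold change over control was 0.38, with 26 genes higher and 0 called, and without replicate 2 it was 1.19, with 34 higher and 16 called (2.71% of all genes were called increased in that fit). *Eif2ak2* and other calls of these comparisons thus rest on which of the 3 arrays are kept.

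Genes that mark epithelium moved with the same arrays. The summed intensity of 10 epithelial genes, among them *Cdh1*, *Epcam* and the keratins *Krt7*, *Krt8*, *Krt18* and *Krt19*, was 3192, 2988 and 5305 in control, 10304, 7765 and 11829 in *Mig-6 d/d* and 2676, 3182 and 3791 in the double knockout. Within each of the 3 groups, the order of the arrays by this sum was their order by the mean of the 35 interferon-stimulated genes. Of the 10 epithelial genes, 5 were called increased in *Mig-6 d/d* over control (2.55% of all genes) and 8 decreased in the double knockout against the *Mig-6 d/d* group (3.76% of all genes). The summed intensity of 6 endothelial genes ran from 722 to 781 in control, 397 to 482 in *Mig-6 d/d* and 581 to 745 in the double knockout, and that of 14 leukocyte genes from 515 to 631, 473 to 557 and 540 to 675. Of the 6 endothelial genes, 3 were called decreased in *Mig-6 d/d* over control (1.81% of all genes). In the double knockout against the *Mig-6 d/d* group, 4 of the 6 were called increased (3.73% of all genes). Of the 14 leukocyte genes, 0 were called increased in *Mig-6 d/d* over control (2.55% of all genes) and 1, *Csf1r*, decreased (1.81%), at 8 higher and 6 lower. Between the groups, stroma and smooth muscle genes went in the opposite direction to epithelium. Over control, 8 of 8 stroma genes and 6 of 6 smooth muscle genes had a lower mean in *Mig-6 d/d*. *Vim* was called decreased, as were 1.81% of all genes, and 0 smooth muscle genes were called (5 at an unadjusted p under 0.05). In the double knockout, means were higher than in *Mig-6 d/d* for 8 of 8 (1 called) and 6 of 6 (3 called), where 3.73% of all genes were called increased. Within *Mig-6 d/d*, replicates 1 to 3 summed to 23205, 19050 and 20698 for stroma and 11702, 8492 and 11735 for smooth muscle. Replicate 2 was thus the lowest in both, as for epithelium. The part of these cell types in the result was not tested.

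**Figure D3:**
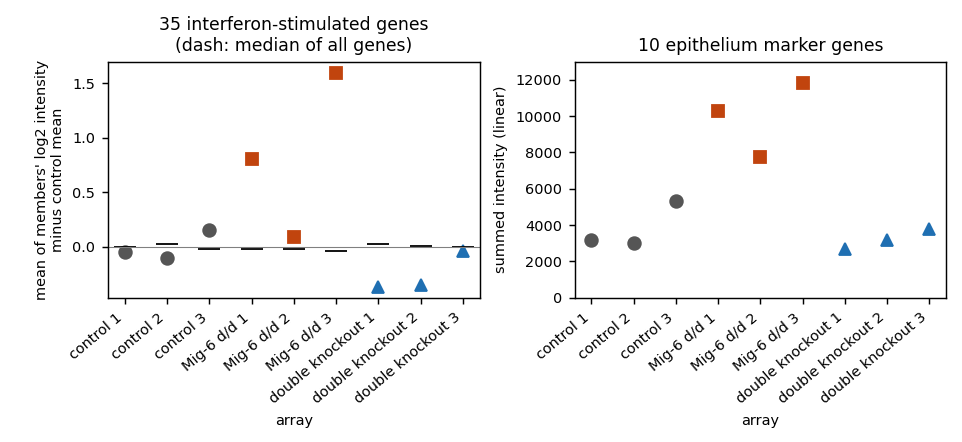
Left, mean over the 35 interferon-stimulated genes of the log2 intensity minus the control mean, 1 point per array, with the median over all genes as a dash. Right, summed linear intensity of 10 epithelium marker genes in the same arrays. Circles are control, squares *Mig-6 d/d* and triangles the double knockout, and in both panels the library labelled *Mig-6 d/d* 3 is the highest, at 1.60 and 11829.

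In the double knockout the same genes read lower than in *Mig-6 d/d*, and 12 of the 35 passed the test. All 12 were called decreased, where 3.76% of all genes were, and 0 were called increased, where 3.73% were. The mean was lower for 32 of the 35 genes and the median log2 fold change was -1.12, against 0.03 over all genes. An unadjusted p under 0.05 was found for 28. Each double knockout array read below each *Mig-6 d/d* array for 23 of the genes, where 14.2% of all genes did so, and above for 1, *Gbp2*, where 18.6% of all genes did so. This comparison uses the same *Mig-6 d/d* arrays as the one above, so its values are not independent of it.

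**Figure D4:**
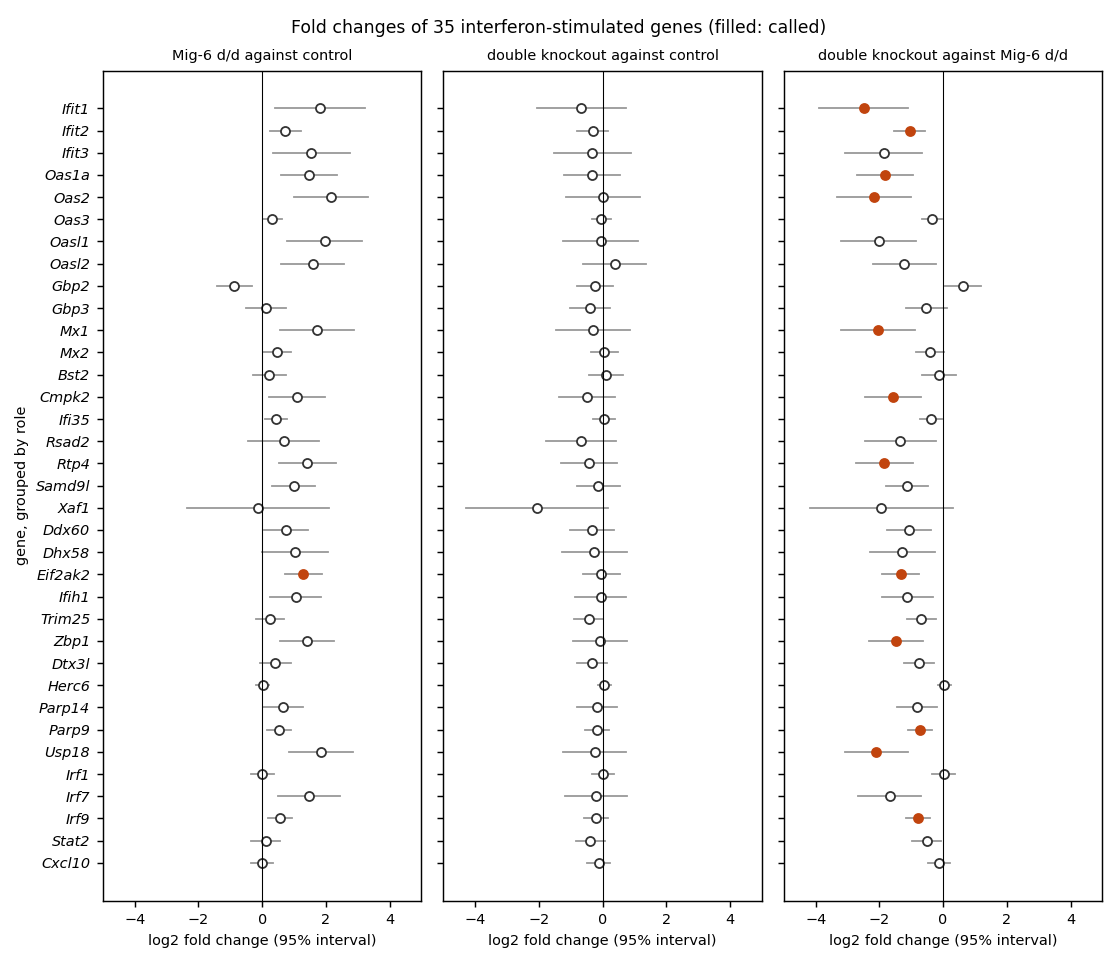
Log2 fold change (points) and 95% interval (lines) from limma for the 35 genes (rows, by role) in the 3 comparisons (panels), with n = 3 arrays a group. Filled points passed the test: 1 in *Mig-6 d/d* against control, 0 in the double knockout against control and 12 in the double knockout against the *Mig-6 d/d* group.

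Among the genes that act on foreign RNA, *Ifit1* fell most in the double knockout against the *Mig-6 d/d* group. It read 56.3, 22.6 and 175 in *Mig-6 d/d* and 6.86, 12.2 and 15.03 in the double knockout, where control read 19.7, 10.4 and 24.9. Its log2 fold change was -2.49 ± 0.63 (SE, n = 3, limma adjusted p = 0.0432), or 5.62-fold lower. Its neighbour on chromosome 19, *Ifit2*, which lies in the same cluster, read 43.7, 37.7 and 56.2 in *Mig-6 d/d* and 18.7, 26.7 and 21.2 in the double knockout (log2 fold change -1.04 ± 0.22, adjusted p = 0.0212). In both genes the groups did not overlap, and the double knockout arrays reached into the control range. *Ifit3*, the other family member among the 35 genes, had a log2 fold change of -1.87 that missed the limit (adjusted p = 0.0712).

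*Oas1a* and *Oas2*, synthases of the RNase L activator that lie close together on chromosome 5, fell as well. *Oas1a* read 102, 144 and 167 in control, 356, 204 and 720 in *Mig-6 d/d* and 101, 81.9 and 144 in the double knockout, a log2 fold change of -1.82 ± 0.39 between the last 2 (adjusted p = 0.0239). The *Mig-6 d/d* arrays were the highest 3 of the 9. *Oas2* read 19.0, 21.9 and 48.0 in the double knockout, all under the lowest *Mig-6 d/d* array at 51.0 (log2 fold change -2.16 ± 0.52, adjusted p = 0.0367). *Oasl1* missed the limit by the least of the uncalled genes, at -2.02 (adjusted p = 0.0501). *Oasl2* and *Oas3* had log2 fold changes of -1.21 and -0.36 and were not called.

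*Mx1* is a gene of the dynamin-like GTPase family. It was at 7.96, 6.37 and 7.90 in control, 32.7, 8.34 and 53.5 in *Mig-6 d/d* and 5.13, 5.54 and 7.37 in the double knockout, and its log2 fold change between the last 2 was -2.04 ± 0.52 (adjusted p = 0.0460). Intensities in control and the double knockout were close to the array medians of 7.87 to 8.24, so the difference rests on 2 bright arrays. Its neighbour on chromosome 16, *Mx2*, had a log2 fold change of -0.41 and was not called. *Rtp4*, a receptor-transporting protein with antiviral activity, read 126, 106 and 160 in control, 368, 184 and 601 in *Mig-6 d/d* and 68.0, 87.0 and 148 in the double knockout (log2 fold change -1.85 ± 0.40, adjusted p = 0.0233). *Cmpk2*, a mitochondrial nucleotide kinase, read 32.6, 19.9 and 72.6 in *Mig-6 d/d* and 9.44, 14.4 and 13.4 in the double knockout (-1.57 ± 0.40, adjusted p = 0.0431). At these probe sets of *Rtp4* and *Cmpk2*, the double knockout lay below *Mig-6 d/d* without overlap, though for *Cmpk2* the control arrays, at 19.0, 12.5 and 21.0, overlapped both groups. The dimmer probe set of each was not called, at -0.65 for *Rtp4* (adjusted p = 0.181) and 0.02 for *Cmpk2* (adjusted p = 0.947). *Rsad2*, the gene of viperin that neighbours *Cmpk2* on chromosome 12, read 103, 41.2 and 217 in *Mig-6 d/d* and 31.6, 45.0 and 39.5 in the double knockout, which overlapped (-1.34, adjusted p = 0.153).

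Of the 6 sensors of nucleic acid, 6 had a lower mean in the double knockout than in *Mig-6 d/d* and 2 passed the test. *Zbp1*, which detects Z-form nucleic acid and can start necroptosis, read 12.3, 14.7 and 14.7 in control, 36.0, 18.6 and 74.5 in *Mig-6 d/d* and 14.6, 11.4 and 13.7 in the double knockout (log2 fold change -1.49 ± 0.38 between the last 2, adjusted p = 0.0455). Its dimmer probe set was not called (-0.88, adjusted p = 0.190). At the probe sets used, *Eif2ak2* had the lowest adjusted p of the 35 genes (log2 fold change -1.34 ± 0.26, adjusted p = 0.0166). It was the gene called there in both comparisons. Its dimmer probe sets had -1.19 (adjusted p = 0.00571, called) and -0.98 (adjusted p = 0.0762, not called). The dimmer probe set of *Xaf1* was also called in both, at 0.89 in *Mig-6 d/d* over control (adjusted p = 0.0369) and -0.76 here (adjusted p = 0.0431). *Ifih1*, *Dhx58*, *Ddx60* and *Trim25*, which sense RNA or relay its detection, had log2 fold changes between -0.69 and -1.29 and were not called at the probe sets used. A second probe set of *Trim25* was called decreased (-0.78, adjusted p = 0.0407).

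*Usp18* fell from the values given above to 16.7, 19.4 and 25.1 in the double knockout, a log2 fold change of -2.10 ± 0.45 (adjusted p = 0.0225). *Parp9* forms an ADP-ribosylating complex with *Dtx3l*, its neighbour on chromosome 16, and read 118, 134 and 154 in control, 192, 155 and 249 in *Mig-6 d/d* and 123, 109 and 124 in the double knockout (-0.72 ± 0.17, adjusted p = 0.0318). Its 3 *Mig-6 d/d* arrays lay above the other 6, although replicate 2 did so by less than 1 unit. *Dtx3l* (-0.75) and *Parp14* (-0.83) were not called. The log2 fold change of *Herc6* was 0.04 at its brightest probe set, while 1 of its 3 dimmer ones was called decreased (-0.73, adjusted p = 0.0110).

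Of the transcription factors, *Irf9*, the DNA-binding subunit of the complex that reads the ISRE, was called. It read 70.9, 64.4 and 71.5 in control, 94.5, 85.2 and 132 in *Mig-6 d/d* and 50.8, 59.7 and 70.1 in the double knockout (log2 fold change -0.78 ± 0.17, adjusted p = 0.0248). *Irf7*, which drives interferon genes, missed the limit at -1.68 (adjusted p = 0.0504). *Stat2*, the partner of *Irf9*, had -0.51 (adjusted p = 0.192). *Irf1* stood apart from the others of its role: it read 156, 195 and 208 in control, 201, 151 and 214 in *Mig-6 d/d* and 202, 170 and 194 in the double knockout, and its log2 fold change was 0.01 (95% interval -0.33 to 0.36). The chemokine gene *Cxcl10* read between 7.17 and 10.9 in the 9 arrays, with a log2 fold change of -0.13 (95% interval -0.48 to 0.23).

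**Figure D5:**
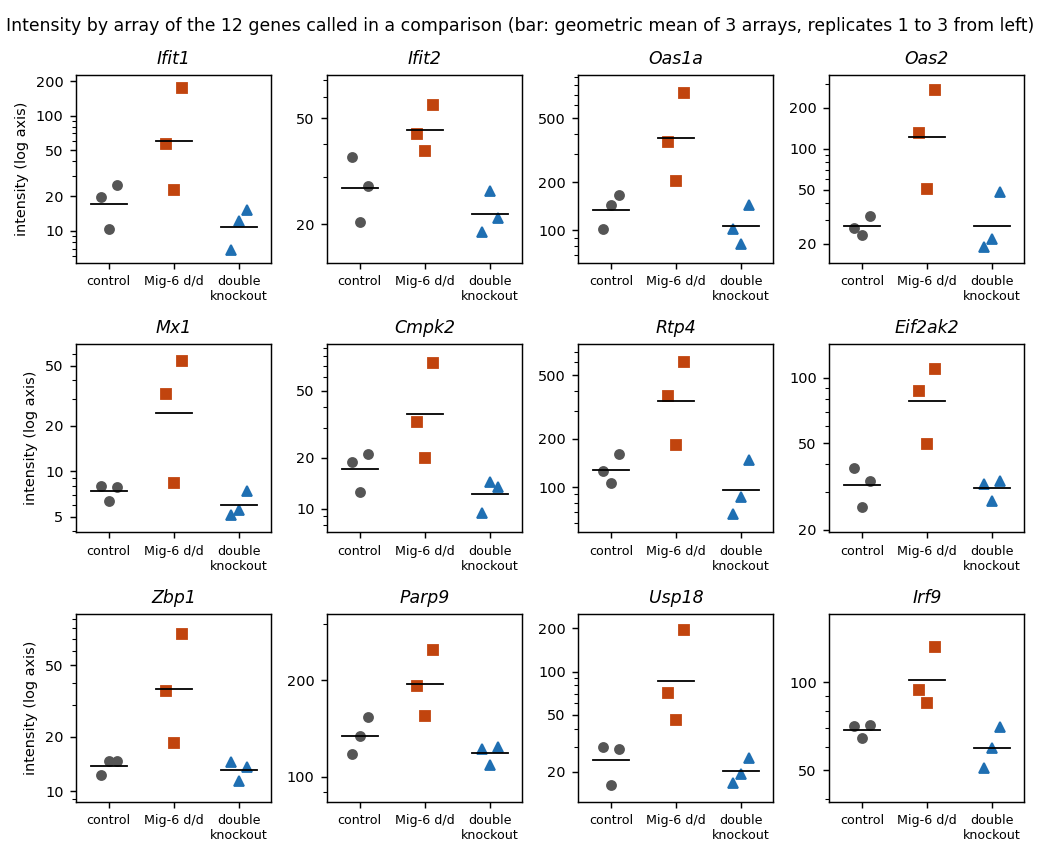
Intensity (log axis, each panel with its own range) in the 9 arrays for the 12 genes called in at least 1 comparison, with points for replicates 1 to 3 from left to right and a bar at the geometric mean of 3 arrays. In each panel the library labelled *Mig-6 d/d* 3 is the highest point and *Mig-6 d/d* replicate 2 the lowest of its group.

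The 3 genes with the brightest probe sets, which is no measure of their transcripts against those of other genes, were not called at those probe sets. *Ifi35*, an interferon-induced leucine zipper protein, read 464, 416 and 403 in control, 534, 475 and 750 in *Mig-6 d/d* and 412, 456 and 458 in the double knockout. Against control, *Mig-6 d/d* differed by 0.43 on the log2 scale (adjusted p = 0.168), and the double knockout differed from *Mig-6 d/d* by -0.38 (adjusted p = 0.196). *Trim25* read 324, 341 and 382 in control, 385, 304 and 598 in *Mig-6 d/d* and 252, 257 and 260 in the double knockout, so that its double knockout arrays were the lowest 3 of the 9. *Bst2*, which tethers budding virus to the cell, read 268, 289 and 324 in control, 313, 255 and 507 in *Mig-6 d/d* and 329, 247 and 386 in the double knockout, and the 3 groups overlapped.

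The genes called in the double knockout against the *Mig-6 d/d* group also depended on single arrays. Of the 35 genes, 0 were called without *Mig-6 d/d* replicate 1 or without double knockout replicate 1, 1 without double knockout replicate 2, 6 without double knockout replicate 3, and 24 without *Mig-6 d/d* replicate 2. Calls over all genes moved in these fits too: 2.08% and 1.76% were called decreased in the first pair, 1.91% and 2.99% without double knockout replicates 2 and 3, and 3.94% without *Mig-6 d/d* replicate 2. With the library labelled *Mig-6 d/d* 3 left out, *Oas1a*, *Usp18* and *Eif2ak2* were called decreased, 2.17% of all genes were called decreased, the median log2 fold change of the 35 was -0.69, and 4 of the 35 genes were higher. The direction of the median was the same in each of these fits.

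Set against control, the double knockout showed no called difference in these genes. Of the 35, at the probe sets used, 0 were called increased (0.214% of all genes were) and 0 decreased (0.198%). At an unadjusted p under 0.05 in limma there were 0. By the methods' t-test 2 had an unadjusted p under 0.05, of which 0 were past the fold limit, and 5 did in limma with the 6 arrays of these groups alone, with 0 called. The mean was lower than in control for 28 of the 35 genes, and the median log2 fold change was -0.21, against 0.01 over all genes. Each double knockout array read below each control array for 6 genes, where 5.32% of all genes did so, and above for 0, where 6.52% did so.

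The values furthest from control were those of *Xaf1*, *Ifit1* and *Rsad2* on the low side. *Xaf1* read 138, 139 and 294 in control and 93.9, 6.51 and 126 in the double knockout, so the log2 fold change of -2.07 ± 1.01 (adjusted p = 0.695) rests on the second array, and the other probe set of *Xaf1* read 153 there. For *Ifit1* the log2 fold change was -0.67 (95% interval -2.08 to 0.73), and for *Rsad2*, at 56.5, 43.1 and 93.2 in control, it was -0.67 (95% interval -1.78 to 0.43). On the high side, *Oasl2* had 0.37, *Bst2* 0.11 and *Mx2* 0.06. Intervals this wide leave room for differences of more than 2-fold in several of the genes.

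The rest of the interferon pathway was read in 84 of 92 listed genes. In *Mig-6 d/d* against control 4 of the 84 were called increased and 0 decreased (2.55% and 1.81% of all genes), with a median log2 fold change of 0.22, against -0.03 over all genes. In the double knockout against the *Mig-6 d/d* group 1 was called increased and 7 decreased (3.73% and 3.76% of all genes), with a median of -0.25, against 0.03 over all genes. Against control, 0 were called in the double knockout (0.214% and 0.198% of all genes), with 6 at an unadjusted p under 0.05. Interferon genes themselves read low: *Ifnb1* ran from 4.48 to 5.05, *Ifng* from 2.58 to 3.45 and *Ifna4* from 4.22 to 5.41 over the 9 arrays, under the array medians, and *Ifnz* from 9.31 to 15.3. Of these 4 genes 0 were called, with 1 at an unadjusted p under 0.05 in both comparisons with control and 0 between the 2 knockouts. Whether such readings are above background cannot be judged without detection calls.

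The type I receptor chains were not called in any comparison. *Ifnar1* read 103, 100.4 and 94.5 in control, 80.2, 72.7 and 73.1 in *Mig-6 d/d* and 100.4, 71.1 and 87.0 in the double knockout, and *Mig-6 d/d* differed from control by -0.40 ± 0.13 on the log2 scale (adjusted p = 0.118). *Ifnar2* read between 121 and 180 in the 9 arrays. *Ifngr2*, a chain of the interferon gamma receptor, read 75.6, 106 and 54.9 in control, 111, 93.9 and 101 in *Mig-6 d/d* and 48.2, 31.4 and 64.9 in the double knockout, and fell in the double knockout against the *Mig-6 d/d* group by 1.14 on the log2 scale (adjusted p = 0.0345). *Socs1*, an inhibitor of Janus kinases, was the gene called increased there. It read 7.44, 6.13 and 5.29 in *Mig-6 d/d* and 11.8, 7.63 and 11.1 in the double knockout (log2 fold change 0.68, adjusted p = 0.0479), levels near the array medians. Of 7 kinases and transcription factors of the pathway 0 were called in any comparison, with 0, 0 and 4 at an unadjusted p under 0.05 for *Mig-6 d/d* over control, the double knockout over control, and the double knockout against the *Mig-6 d/d* group.

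Among sensors and further interferon-inducible genes, *Epsti1*, *Trim30a* and *Ifi47* were called in both comparisons. *Epsti1*, a gene first known from epithelial and stromal cell contact, read 35.2, 15.8 and 67.9 in control, 214, 103 and 259 in *Mig-6 d/d* and 17.4, 19.7 and 46.6 in the double knockout (log2 fold changes 2.41, adjusted p = 0.0417, and -2.83, adjusted p = 0.0154). *Trim30a*, a tripartite motif protein, read 28.1, 13.7 and 18.8 in control, 74.2, 43.6 and 121 in *Mig-6 d/d* and 14.4, 22.5 and 30.1 in the double knockout (1.92 and -1.78). *Ifi47*, an immunity-related GTPase gene, read 70.6, 58.2 and 73.0, then 169, 106 and 225, then 66.2, 62.2 and 87.9 (1.25 and -1.16). In these 3 genes, as in 34 of the 35, *Mig-6 d/d* replicate 2 was the lowest of its group. The highest was the library labelled *Mig-6 d/d* 3, in these 3 and in 35 of the 35.

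*Cgas*, the sensor of cytosolic DNA, had replicates closer together, at 29.5, 30.3 and 22.3 in control, 41.5, 44.0 and 44.9 in *Mig-6 d/d* and 30.9, 28.6 and 31.1 in the double knockout. Its log2 fold change was 0.68 ± 0.12 over control (adjusted p = 0.0212), and in the double knockout against the *Mig-6 d/d* group it was -0.53, past the p limit (adjusted p = 0.0320) and short of the fold limit. The calls of *Epsti1*, *Trim30a*, *Ifi47* and *Cgas* over control were each lost on leaving out *Mig-6 d/d* replicate 1 and on leaving out the library labelled *Mig-6 d/d* 3. *Ifi27l2a*, an interferon-induced mitochondrial protein gene, read 269, 286 and 208 in control, 320, 345 and 568 in *Mig-6 d/d* and 170, 157 and 191 in the double knockout. Both knockouts lay outside the control range, on opposite sides, and the decrease between them (-1.21 on the log2 scale, adjusted p = 0.00997) was called with any 1 array left out. *Phf11d* (-1.59) and the immunoproteasome gene *Psmb8* (-0.78) were the other genes called decreased in that comparison.

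Of the 6 genes with a promoter window that were called decreased in the double knockout against the *Mig-6 d/d* group, 3 held the ISRE core (50%), as did 10 of 20 that were not called (50%). The GAS core lay in 3 of the 6 (50%) and in 3 of the 20 (15%), numbers too small to read a difference from, and no test was run. The median log2 fold change in that comparison was -1.08 in the 13 genes with the core and -1.04 in the 13 without, and in *Mig-6 d/d* over control it was 0.67 and 0.57. *Ifit1*, with 2 cores at positions centred on -99.5 and -80.5, and *Oas1a*, with its overlapping pair close to the start, were among the called genes, while *Gbp2*, *Cxcl10*, *Stat2* and *Bst2*, printed above, were not.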

How the data were processed

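Whole uteri on GD 3.5 were profiled by the authors on Affymetrix mouse arrays (9 arrays, 3 a group). The deposited intensities (linear scale, 2.11 to 11548.76, median 8.07) were made by the authors with RMA and quantile normalization, per the labels and the methods, in a version not given in the sources used here. Neither scanner files nor detection calls were used here, and precision is limited by the number of arrays. Log2 values of 45037 probe sets entered 1 model in limma 3.58.1 (R 4.3.3; lmFit, eBayes) with 3 comparisons and Benjamini-Hochberg adjustment. Calls needed an adjusted p under 0.05 and more than 1.5-fold. The two-tailed t-test of the methods' general statistics, which they do not name for the arrays, was an alternative. Symbols came from the platform annotation (34945 probe sets with 1 symbol, 932 with several, 9160 unnamed), and 34741 matched RefSeq (GRCm38.p6), which also gave promoters. Replicate numbers did not pair the arrays.

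The genes, lists and tests were chosen with earlier results of these data known. Genes are named if called, among the 3 largest changes each way, among the 3 brightest, or, for the wider pathway, if called or a type I receptor; others complete a count. The code of the fit was run on simulated data with independent noise for each probe set. Such data cannot show how the fit does where genes move together across arrays, as they did here. Figures were drawn with matplotlib 3.10.9 (Python 3.11.15).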

Additional observations from a re-analysis of the deposited data

How the results depend on the processing

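Counts of called genes moved with the fit more than directions did. For the 35 interferon-stimulated genes in Mig-6 d/d against control, 1 was called, and leaving out each array gave 0 to 16 (median log2 fold change 0.38 to 1.19). In those fits 0.737% to 3.24% of all genes were called increased. The count was 5 among probe sets above the median level (4.65% of all genes read there were called increased). It was 7 with a replicate block (3.01%) and 0 with the 6 arrays of the groups compared (1.3%). By the methods' t-test it was 2 (3.31%), and 0 after Benjamini-Hochberg adjustment, by which 0 of all genes were called. It was 3 with 1 probe set per gene tested (3.07%) or with the mean over probe sets (2.52%). In the double knockout against the Mig-6 d/d group, 12 were called, with 0 to 24 when an array was left out (1.76% to 4.24% of all genes called decreased). The count was 6 with a trended and robust variance (3.68%), 7 with 6 arrays (4.51%), 20 with array weights (4.74%) and 17 with the replicate block (4.07%). By the methods' t-test it was 7 (4.66%), and 0 after adjustment (0.066%). In the double knockout against control the block left the count at 0, with 2 genes at an unadjusted p under 0.05 where there had been 0. Same-numbered arrays had correlations of their deviations from -0.143 to 0.252, so the numbers were not taken as pairs, and not every array correlated best with its own number. Of the other 84 pathway genes, 4 were called in the first comparison, all increased, where 2.55% of all genes were. The count was 0 to 12 with an array left out (0.737% to 3.24%), 0 with 6 arrays (1.3%) and 0 by the adjusted t-test (0%). In the last, 8 were called, 1 increased and 7 decreased (3.73% and 3.76%). The count was 1 to 15 with an array left out (1.67% to 4.18% increased, 1.76% to 4.24% decreased) and 13 with array weights (4.34% and 4.74%). By the adjusted t-test it was 0 (0.044% and 0.066%). In the double knockout against control it was 0 (0.214% and 0.198%), and 1, increased, by the unadjusted t-test (0.627%). The causes were not tested beyond the fewer arrays of those fits. The medians kept their sign under each alternative run. Signal over background was not measured, so readings near the array median, such as those of Mx1, limit what can be said.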
